A study of Mus musculus with 29 samples.

Results

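Genes of ribosome biogenesis and RNA polymerase I were examined in RNA-seq libraries of mouse pro-B cells that had been sorted from bone marrow. The 40 genes were given as a list of names, and all 40 were found among the 24732 entries of the deposited tables by the entry name, ignoring any mark that the authors had added to it. The list holds subunits and initiation factors of RNA polymerase I, proteins of small nucleolar ribonucleoproteins (snoRNPs), abundant nucleolar proteins and maturation factors of both ribosomal subunits, whereas the ribosomal proteins themselves were not members. Levels are given as TPM, a transcript abundance with the same sum in every library, for which the authors had divided reads by gene length, so that levels of different genes can be set side by side.

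Ribosomes are assembled in the nucleolus. RNA polymerase I transcribes the long ribosomal RNA precursor there, box C/D and box H/ACA snoRNPs modify its ribose and uridine residues, and processing factors cut and fold it while ribosomal proteins join. This work is a large part of the biosynthesis of dividing cells such as pro-B cells, and many of its genes are known targets of Myc, a transcription factor that binds the E-box sequence CACGTG.

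The libraries fell into 3 groups, all from mice on the C57BL/6 background. The Pax5+/+ group held 3 libraries labelled wild-type, and the Pax5-/- group held 2 libraries of cells without functional Pax5, the transcription factor that commits progenitor cells to the B cell lineage. The third group held 3 libraries of pooled cells labelled Pax5(+/+) Meox2-cre, taken from mice at the age of 3 weeks, in which the Meox2 locus expresses Cre recombinase ubiquitously. The sample list of the study gives the last group as heterozygous for Pax5. The text of the study describes its control pro-B cells from mice at 3 weeks as Pax5+/+, as the labels do, and the labels were followed here. No age was found for the mice of the other groups in the sources used here. The methods define Pax5-deficient progenitors by other surface markers than pro-B cells, with Ly6D among those of the progenitors, so that genotype and sort gate cannot be told apart. The labels do not say whether the libraries of a group came from separate mice, and p-values may therefore measure only technical spread.

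The library labels were checked first. Pax5 itself had 342, 386 and 391 TPM in the wild-type libraries and 394, 376 and 397 TPM in the Meox2-Cre libraries, but 43.0 and 39.1 TPM without functional Pax5. Values per gene do not show from which exons the remaining reads came. Ly6d was higher in Pax5-/- cells by 3.60 on the log2 scale (adjusted p = 1.81e-05, limma). Ly6D is a marker of the progenitor gate, and for this gene too genotype and gate cannot be told apart. The values of a library sum to 1000000 TPM, which hides the number of reads. Relative depth was read from genes with few reads, whose TPM differ between libraries by a common step. It was 1.02 and 1.03 for Pax5+/+ replicates 2 and 3 and 0.855 and 1.54 for the Pax5-/- libraries, with Pax5+/+ replicate 1 set to 1. Replicate numbers only name the libraries.

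All 40 genes were expressed in Pax5+/+ pro-B cells. Their mean levels ranged from 14.96 TPM for Wdr12 to 456 TPM for Rrp1, with a median of 87.8 TPM compared with 23.1 TPM over all 12066 genes tested, and 17 of the genes exceeded 100 TPM. Together they accounted for 0.517%, 0.454% and 0.548% of all TPM in Pax5+/+ libraries, for 0.601% and 0.526% in the Pax5-/- libraries and for 0.429%, 0.492% and 0.433% in the Meox2-Cre libraries. The share was highest in Pax5-/- replicate 1, whereas Pax5-/- replicate 2 lay inside the range of the Pax5+/+ libraries. In bulk libraries, fewer cells of a type and less RNA per cell cannot be told apart.

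**Figure D1:**
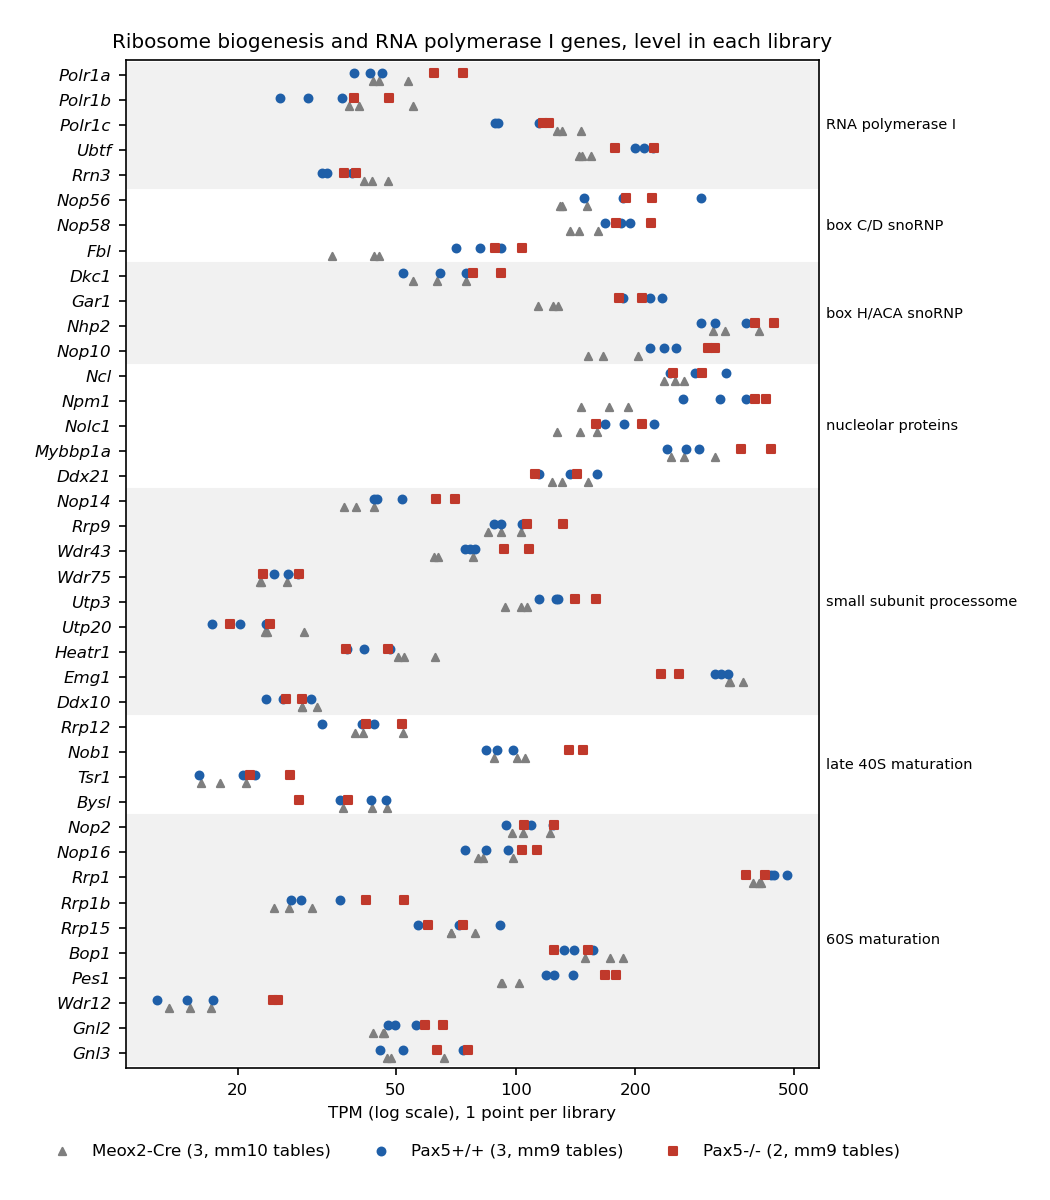
Level of each of the 40 genes in every library, in TPM on a log axis, with 1 point per library and the genes grouped by role. Circles are the 3 Pax5+/+ libraries, squares the 2 Pax5-/- libraries and triangles the 3 Meox2-Cre libraries, whose tables were made on another genome build. The genes span 14.96 to 456 TPM in Pax5+/+ means, and the squares lie to the right of all circles for 18 genes and to the left of all circles for 2.

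To examine whether these genes differ between Pax5+/+ and Pax5-/- pro-B cells, the log2(TPM + 0.5) values were compared with limma across all genes whose mean exceeded 1 TPM in either genotype, with adjustment of p-values over all genes tested. In Pax5-/- cells, 9 of the 40 genes rose at an adjusted p below 0.05 (22.5%, against 15.6% of all genes tested), 1 gene fell (2.5%, against 21.5%) and 30 did not pass the test. Over all genes tested, 37.1% passed in either direction. The genes that rose were Wdr12, Polr1a, Nob1, Rrp1b, Mybbp1a, Nop14, Pes1, Nop10 and Wdr43, and the gene that fell was Emg1. The changes were small, since the ratio of mean TPM of the 9 genes was between 1.31 and 1.67, and that of Emg1 was 0.744. None of the 40 genes passed the threshold of more than 3-fold, adjusted p below 0.05 and a mean above 5 TPM (limma), which 3.35% and 3.89% of 9765 genes passed as higher and lower, and 0 passed at 2-fold. At an unadjusted p below 0.05, 17 genes were higher and 1 was lower, against 19.3% and 28% of all genes tested. An exact permutation test of 3 against 2 libraries cannot go below p = 0.1, so no test of single genes outside the fit across genes was made.

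The estimate was above 0 for 28 of the 40 genes, compared with 40.7% of all genes tested. The median log2 fold change was 0.27 (quartiles -0.05 and 0.39, range -0.43 to 0.73), against -0.12 over all genes tested, which is a difference of 0.39. Both Pax5-/- libraries lay above every Pax5+/+ library for 18 genes (45%, against 26.1% of all genes tested) and below every Pax5+/+ library for Emg1 and Rrp1 (against 37.4%), whereas the genotypes overlapped for the other 20 genes. All 9 genes that rose were among the 18. The other 9 of the 18 had log2 fold changes between 0.28 and 0.50 and adjusted p-values between 0.0597 and 0.121 (limma), and thus did not pass.

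**Figure D2:**
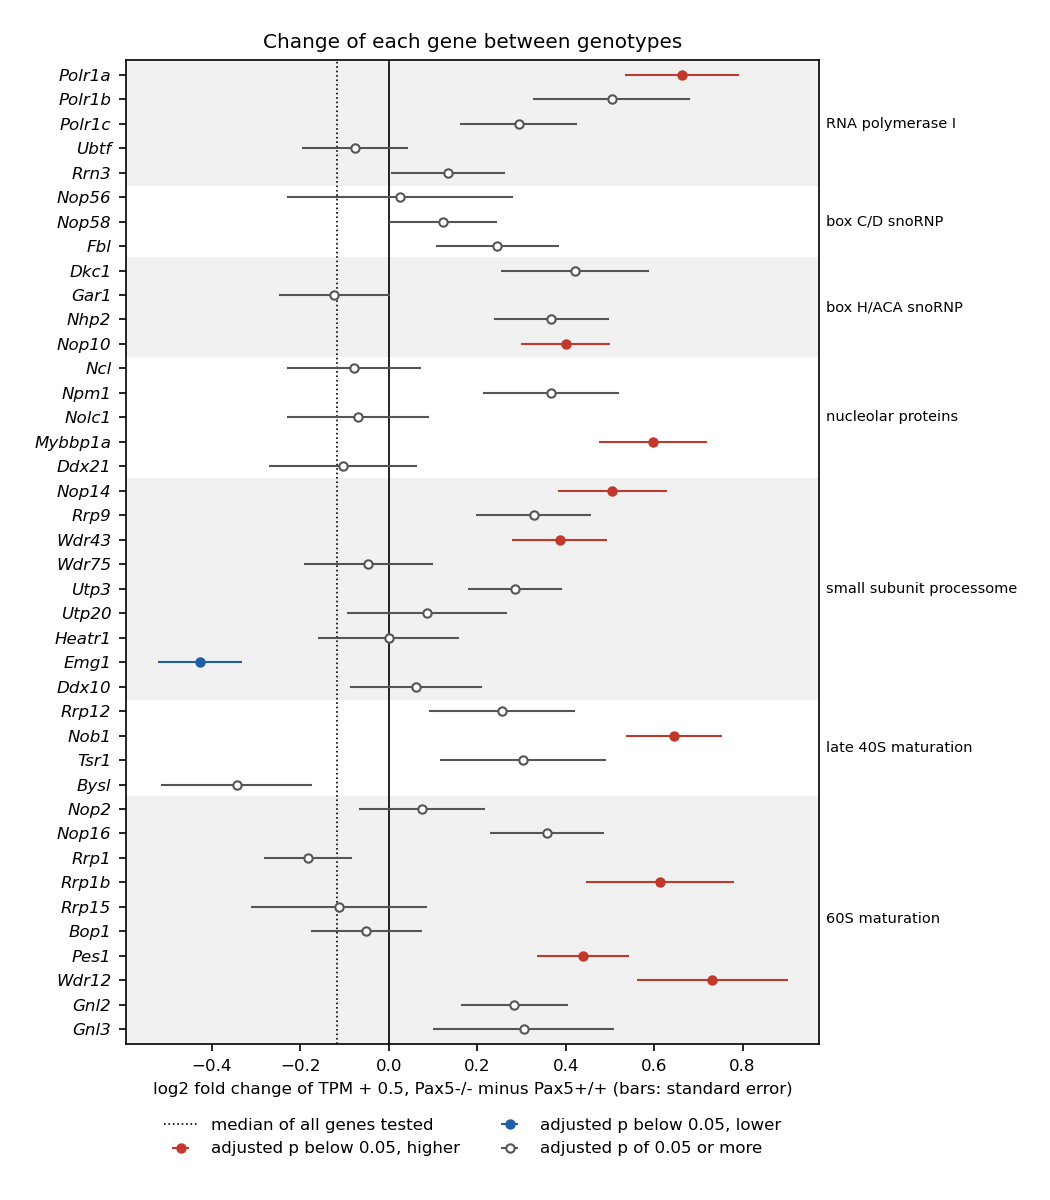
Log2 fold change of TPM + 0.5 between Pax5-/- and Pax5+/+ libraries for each of the 40 genes, grouped by role, with bars of 1 standard error from limma. Filled points passed an adjusted p of 0.05 (9 to the right and Emg1 to the left), open points did not, the solid line is 0 and the dotted line is the median of all genes tested at -0.12.

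The count of genes that rose depended on single libraries. Without Pax5-/- replicate 1 only Nob1 passed of the 9, and without Pax5-/- replicate 2 only Polr1a and Mybbp1a passed, each time with 0 genes lower, although fewer genes passed overall (6.61% and 5.83% of all genes tested as higher). Without Pax5+/+ replicate 3, 16 genes passed as higher (40% of the list, against 16.5% of all genes tested). Scaling also mattered, because 16 genes passed after rescaling by median ratios (40% of the list, against 19.8% of all genes tested), 18 after quantile normalization (against 20.4%) and 16 after removal of the ribosomal protein genes (against 18.4%), each time with all 9 genes included. Rescaling by median ratios moved the median of all genes from -0.12 to -0.01 and that of the 40 genes to 0.37, so that the difference between both remained 0.39. This difference was between 0.27 and 0.44 under the 15 other settings, including each library left out. The eBayes options leave all estimates unchanged, and rescaling whole libraries shifts both medians nearly alike. Those settings could therefore hardly move the difference.

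The libraries of one genotype differed from each other in the same direction across many of these genes. Pax5-/- replicate 1 exceeded replicate 2 for 38 of the 40 genes, compared with 60.5% of all genes tested. Pax5+/+ replicate 2 was the lowest of its group for 35 genes (against 26.9%) and replicate 3 was the highest for 28 (against 53.5%), whereas replicate 2 was highest for 0. Relative to the mean of the Pax5+/+ libraries, the median gene of the list deviated by 0.01, -0.16 and 0.14 on the log2 scale in the Pax5+/+ libraries and by 0.36 and 0.13 in the Pax5-/- libraries. The median of all genes tested deviated by -0.10, 0.01 and 0.10 and by -0.09 and -0.14, respectively. After subtraction of that median, the list stood at 0.11, -0.17 and 0.04 in the Pax5+/+ libraries and at 0.45 and 0.28 in the Pax5-/- libraries, which placed both Pax5-/- libraries above all 3 Pax5+/+ libraries. Without that subtraction, Pax5-/- replicate 2 (0.13) lay just below Pax5+/+ replicate 3 (0.14).

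**Figure D3:**
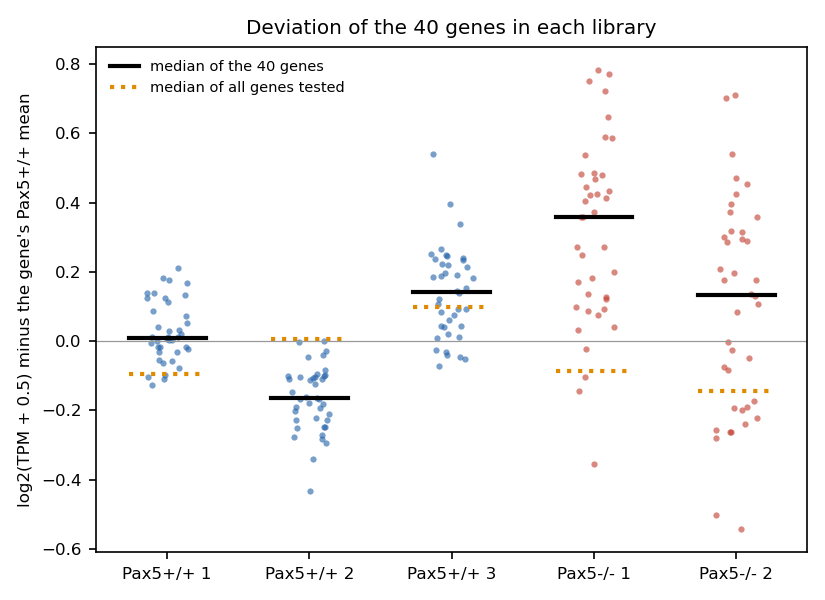
Deviation of each of the 40 genes from its Pax5+/+ mean in each of the 5 libraries, in log2(TPM + 0.5) units, with 1 point per gene. Solid bars mark the median of the 40 genes (0.01, -0.16, 0.14, 0.36 and 0.13) and dotted bars the median of all genes tested, which lies below the solid bar in all libraries but Pax5+/+ replicate 2.

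The promoters of the genes were read from RefSeq (GRCm38.p6, 250 bases before to 50 bases after an annotated transcript start), where 35 of the 40 genes had an entry. The other genes were Fbl, Rrp12, Gnl2, Npm1 and Bop1. The E-box CACGTG, which reads the same on both strands, was present in at least 1 promoter of 7 of the 35 genes (20%), compared with 12.1% of 8846 tested genes with a promoter and 8.09% of all 27025 genes with a promoter. All 9 genes that rose had a promoter entry, and 3 of them held the motif, namely Pes1 (chr11:3963725-3964024), Mybbp1a (chr11:72441077-72441376) and Wdr43 (chr17:71615965-71616264), all on the plus strand. In each of them the motif lies close to the transcript start, as it also does in Tsr1 and Utp20, which did not pass. The whole promoters of the 3 genes that rose are shown, 5′ to 3′, with the motif in capitals.
Pes1: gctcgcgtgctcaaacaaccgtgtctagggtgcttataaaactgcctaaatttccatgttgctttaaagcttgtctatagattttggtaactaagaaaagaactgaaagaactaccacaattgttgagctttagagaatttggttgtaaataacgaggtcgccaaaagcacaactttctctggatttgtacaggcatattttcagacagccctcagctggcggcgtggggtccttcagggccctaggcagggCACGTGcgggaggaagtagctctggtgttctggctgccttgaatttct
Mybbp1a: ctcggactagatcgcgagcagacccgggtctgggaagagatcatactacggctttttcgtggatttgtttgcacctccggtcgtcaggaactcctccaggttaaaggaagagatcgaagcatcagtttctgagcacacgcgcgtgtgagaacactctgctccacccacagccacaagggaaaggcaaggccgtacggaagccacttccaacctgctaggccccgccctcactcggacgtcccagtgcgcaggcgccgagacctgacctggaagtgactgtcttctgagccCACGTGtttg
Wdr43: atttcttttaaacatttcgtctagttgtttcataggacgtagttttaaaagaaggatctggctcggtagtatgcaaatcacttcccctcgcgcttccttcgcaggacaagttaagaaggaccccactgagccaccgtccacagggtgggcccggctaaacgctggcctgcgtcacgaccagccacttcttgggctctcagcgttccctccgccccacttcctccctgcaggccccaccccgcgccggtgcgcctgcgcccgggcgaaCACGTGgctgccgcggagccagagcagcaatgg
Counting the first transcribed base as 1, the motif began at position 3 in Pes1, at 41 in Mybbp1a and at 18 in Wdr43, and thus downstream of the start in all 3 genes.

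The other 4 genes with the motif did not pass the test of expression. Their motifs are shown with up to 12 bases on each side, from Nop2 (chr6:125131811-125131840, plus strand), Utp20 (chr10:88826765-88826789, minus strand), Tsr1 (chr11:74898092-74898121, plus strand) and Rrn3 (chr16:13780472-13780501, plus strand).
Nop2: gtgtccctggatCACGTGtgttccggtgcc
Utp20: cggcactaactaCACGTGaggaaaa
Tsr1: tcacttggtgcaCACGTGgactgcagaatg
Rrn3: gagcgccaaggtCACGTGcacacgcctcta
The motif began at position -60 in Nop2, at 38 in Utp20, at 25 in Tsr1 and at -215 in Rrn3, where it was the first of 2, and their log2 fold changes were 0.07, 0.09, 0.30 and 0.13. A match of these letters is a description of the sequence, and binding of any factor was not measured here. Wdr12, Polr1a, Nob1, Rrp1b, Nop14 and Nop10 rose without the motif in the windows searched.

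RNA polymerase I itself was represented by 5 genes, of which 1 rose and 0 fell. Polr1a, which encodes the largest and catalytic subunit (chr6:71859047-71929350, mm9), was measured at 46.2, 39.2 and 43.1 TPM in Pax5+/+ cells and at 73.9 and 62.4 TPM in Pax5-/- cells. Both Pax5-/- libraries were above all Pax5+/+ libraries, with a log2 fold change of 0.66 (SE 0.13, adjusted p = 0.00657, limma). Polr1b, the other large core subunit, ranged from 25.6 to 36.7 TPM in Pax5+/+ cells and from 39.2 to 48.0 TPM in Pax5-/- cells, without overlap, but missed the threshold (0.50, adjusted p = 0.0598, limma). Polr1c, a subunit shared with RNA polymerase III, also did not overlap (89.0 to 114 against 117 to 121 TPM) and did not pass (0.29, adjusted p = 0.121, limma). Ubtf, which binds the ribosomal DNA promoter and opens its chromatin, was measured at 221, 209.7 and 199.9 TPM in Pax5+/+ cells and at 223 and 178 TPM in Pax5-/- cells. Its Pax5-/- libraries lay on both sides of the Pax5+/+ range, and its log2 fold change of -0.08 had a 95% interval from -0.36 to 0.20. Rrn3, the initiation factor that recruits the polymerase, had a log2 fold change of 0.13 with overlapping libraries. In Pax5+/+ cells, Ubtf was the most abundant of the 5 at 210.2 ± 10.6 TPM (SD, n = 3), followed by Polr1c at 97.8 ± 14.4 TPM, whereas Polr1a (42.8 ± 3.51 TPM), Rrn3 (34.98 ± 3.42 TPM) and Polr1b (30.8 ± 5.59 TPM) lay close together.

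The box C/D snoRNP proteins did not change detectably. Fibrillarin (Fbl), the methyltransferase of these particles, was measured at 92.0, 70.8 and 81.5 TPM in Pax5+/+ cells and at 104 and 88.8 TPM in Pax5-/- cells. The lower Pax5-/- library fell within the Pax5+/+ range, and the log2 fold change of 0.25 (95% interval -0.08 to 0.57) did not pass (adjusted p = 0.204, limma). The scaffold protein Nop56 was measured at 186, 149 and 292 TPM in Pax5+/+ cells and at 220.4 and 189 TPM in Pax5-/- cells. Pax5+/+ replicate 3 was far above the other 4 libraries, and the estimate of 0.02 had the widest error of the list (SE 0.26). Nop58, the partner of Nop56 in the particle, had a log2 fold change of 0.12, and 0 of the 3 genes passed in either direction.

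Of the 4 core proteins of the box H/ACA snoRNPs, which convert uridine to pseudouridine and also belong to telomerase, 1 rose and 3 were higher without overlap. Nop10 (chr2:112102083-112103426, mm9) was measured at 236, 218 and 254 TPM in Pax5+/+ cells and at 316 and 305 TPM in Pax5-/- cells. The 2 Pax5-/- libraries lay close together above the Pax5+/+ range, with a log2 fold change of 0.40 (SE 0.10, adjusted p = 0.0181, limma). Dkc1, the pseudouridine synthase dyskerin, was measured at 64.6, 52.1 and 75.2 TPM against 92.1 and 78.04 TPM. The genotypes did not overlap, but Pax5+/+ replicate 3 nearly reached Pax5-/- replicate 2, and the log2 fold change of 0.42 did not pass (adjusted p = 0.0859, limma). Nhp2 was similar, with 292 to 379 against 399.9 to 446 TPM and a log2 fold change of 0.37 (adjusted p = 0.0597, limma). Gar1, by contrast, was measured at 233, 187 and 218 TPM in Pax5+/+ cells and at 208 and 182 TPM in Pax5-/- cells. Its Pax5-/- libraries lay within and just below the Pax5+/+ range, and its estimate of -0.12 (95% interval -0.42 to 0.17) was close to the median of all genes. The difference between Gar1 and its partners was not tested.

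Among the abundant nucleolar proteins, 1 of 5 rose. Mybbp1a, a nucleolar protein that binds the transcription factor Myb and takes part in precursor processing (chr11:72254857-72265270, mm9), was measured at 289, 239.6 and 269 TPM in Pax5+/+ cells and at 438 and 368 TPM in Pax5-/- cells. The 2 genotypes were well separated, with a log2 fold change of 0.60 (SE 0.12, adjusted p = 0.00797, limma). Nucleophosmin (Npm1), a chaperone of ribosome assembly, was higher without overlap (263 to 381 against 399 to 426 TPM) but did not pass (0.37, adjusted p = 0.101, limma). Nolc1, a chaperone of snoRNPs, was measured at 187, 167 and 223 TPM in Pax5+/+ cells and at 208 and 159 TPM in Pax5-/- cells, on both sides of the Pax5+/+ median. Its log2 fold change was -0.07 (95% interval -0.44 to 0.30). Nucleolin (Ncl) and the RNA helicase Ddx21 had estimates of -0.08 and -0.10 with overlapping libraries. The summed level of the 5 genes was between 1028 and 1372 TPM in Pax5+/+ cells and between 1287 and 1509 TPM in Pax5-/- cells.

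The small subunit processome, the large particle that forms on the nascent precursor, contributed 9 genes, of which 2 rose and 1 fell. Nop14 (chr5:34981181-35002797, mm9), a structural component, was measured at 44.8, 44.2 and 51.9 TPM in Pax5+/+ cells and at 70.5 and 63.0 TPM in Pax5-/- cells. All Pax5-/- values exceeded all Pax5+/+ values, with a log2 fold change of 0.51 (SE 0.12, adjusted p = 0.0163, limma). Wdr43 (chr17:71965555-72008371, mm9), a WD repeat protein of the module that couples transcription to processing, was measured at 76.9, 74.4 and 79.2 TPM against 108 and 93.7 TPM. The Pax5+/+ libraries were nearly equal and both Pax5-/- libraries were higher, with the smallest change among the 9 genes that rose (0.39, SE 0.11, adjusted p = 0.0260, limma).

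Emg1, a methyltransferase of the small subunit RNA (chr6:124654399-124662196, mm9), was the only gene of the list that fell. It was measured at 341, 329 and 318 TPM in Pax5+/+ cells and at 258 and 232 TPM in Pax5-/- cells, and the Meox2-Cre libraries had 346, 374 and 344 TPM. Both Pax5-/- libraries were below all the others, with a log2 fold change of -0.43 (SE 0.10, adjusted p = 0.0113, limma). The call was lost after rescaling by median ratios (-0.32, adjusted p = 0.0796, limma) and without either Pax5-/- library. Emg1 shares 38 exon bases with Lpcat3 on the opposite strand, and reads were counted without regard to strand.

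The other 6 processome genes did not pass. Rrp9 (0.33, 88.1 to 104 against 107 to 132 TPM) and Utp3 (0.29, 114 to 128 against 141 to 159 TPM) were higher without overlap. Heatr1, a large scaffold protein that also promotes transcription by RNA polymerase I, was measured at 41.6, 37.6 and 48.4 TPM in Pax5+/+ cells and at 47.7 and 37.5 TPM in Pax5-/- cells. The Pax5-/- libraries stood at both ends of the Pax5+/+ range, and the estimate was -0.000322 with a 95% interval from -0.37 to 0.37. Utp20 (0.09), Ddx10 (0.06) and Wdr75 (-0.05) also overlapped between genotypes.

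Late maturation of the small subunit was represented by 4 genes. Nob1, the endonuclease that makes the final cut at the end of the small subunit RNA (chr8:109936386-109948951, mm9), was measured at 89.6, 84.3 and 98.7 TPM in Pax5+/+ cells, at 137 and 148 TPM in Pax5-/- cells and at 88.0, 106 and 101 TPM in the Meox2-Cre libraries. It had the lowest adjusted p of the list and was one of the 2 genes that were lower in Pax5-/- replicate 1 than in replicate 2, with a log2 fold change of 0.65 (SE 0.11, adjusted p = 0.00352, limma). Rrp12, an export and maturation factor, was measured at 44.1, 32.7 and 41.1 TPM against 51.8 and 42.0 TPM. One Pax5-/- library lay within the Pax5+/+ range, and the log2 fold change of 0.26 did not pass. Tsr1, a GTPase-like factor of late small subunit precursors, had a log2 fold change of 0.30 with overlap. Bysl, a factor of late small subunit assembly, had the second lowest estimate of the list (-0.34, 95% interval -0.74 to 0.06) and ranged from 36.2 to 47.2 TPM in Pax5+/+ cells and from 28.6 to 37.9 TPM in Pax5-/- cells. The exons of both genes overlap a gene on the opposite strand, by 32.3% of Tsr1 with Srr and by 9.16% of Bysl with Ccnd3, which encodes cyclin D3.

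Of the 10 genes of large subunit maturation, 3 rose and 0 fell. Wdr12 (chr1:60133712-60155489, mm9) showed the largest change of the list and was its least abundant member. It was measured at 14.9, 12.6 and 17.4 TPM in Pax5+/+ cells and at 25.3 and 24.6 TPM in Pax5-/- cells, and the Meox2-Cre libraries with 15.2, 17.2 and 13.4 TPM resembled the Pax5+/+ libraries. The log2 fold change was 0.73 (SE 0.17, adjusted p = 0.0135, limma). Pes1 (chr11:3863978-3880007, mm9) was measured at 139, 119.6 and 125 TPM against 179 and 168 TPM. Both Pax5-/- libraries were higher, with a log2 fold change of 0.44 (SE 0.11, adjusted p = 0.0150, limma).

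Wdr12 and Pes1 form the PeBoW complex with Bop1, which was measured at 157, 132 and 140.4 TPM in Pax5+/+ cells and at 152 and 125 TPM in Pax5-/- cells. Bop1 had the smallest change of the large subunit genes (-0.05, 95% interval -0.34 to 0.24) and overlapped between genotypes. Its estimate was 0.06 with median ratios, 0.04 with quantile normalization and 0.04 without ribosomal protein genes, and it did not pass in any setting that kept all libraries (adjusted p between 0.770 and 0.851, limma). The difference between Bop1 and its partners was not tested.

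Rrp1b and Rrp1, a pair of related genes, had estimates of opposite sign. Rrp1b (chr17:32173045-32199810, mm9) was measured at 28.9, 27.2 and 36.1 TPM in Pax5+/+ cells and at 52.4 and 42.0 TPM in Pax5-/- cells, which did not overlap (0.61, SE 0.17, adjusted p = 0.0243, limma). Rrp1 was the most abundant gene of the list with 438, 447 and 483 TPM against 424 and 379.6 TPM. Both Pax5-/- libraries lay below the Pax5+/+ libraries, but the log2 fold change of -0.18 did not pass (adjusted p = 0.188, limma). It was negative under all 15 other settings. Nop16 (0.36) and the GTPase Gnl2 (0.28) were higher without overlap and did not pass. Nucleostemin (Gnl3, 0.31), the methyltransferase Nop2 (0.07) and Rrp15 (-0.11) overlapped between genotypes.

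By role, the median log2 fold change was 0.38 for the 4 box H/ACA proteins, 0.29 for RNA polymerase I, 0.29 for large subunit maturation, 0.28 for late small subunit maturation, 0.12 for box C/D proteins, 0.09 for the small subunit processome and -0.07 for the abundant nucleolar proteins. The number of genes that rose in these groups was 1 of 4, 1 of 5, 3 of 10, 1 of 4, 0 of 3, 2 of 9 and 1 of 5, respectively, and no test between the groups was made. Over all genes tested, 15.6% passed as higher, and groups this small cannot show a departure from that share. The summed level was higher without overlap in Pax5-/- cells for late small subunit maturation (169 to 205 against 240.0 to 253 TPM), for the box H/ACA proteins (749 to 913 against 965 to 1063 TPM) and for RNA polymerase I (397 to 433 against 438 to 502 TPM), and it overlapped for the other 4 groups. For RNA polymerase I the ranges nearly met, and Ubtf, its most abundant gene, did not pass. For late small subunit maturation, the higher sum came mostly from Nob1. Its mean was 90.9 TPM with Pax5 and 142 TPM without functional Pax5. The means of Rrp12 (39.3 and 46.9 TPM) and Tsr1 (19.6 and 24.3 TPM) differed less. The mean of Bysl was lower without functional Pax5 (42.2 and 33.3 TPM). The 9 genes that rose were spread over the range of expression, with 4 in the upper part and 5 in the lower part of the list when it was divided at its median Pax5+/+ level.

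To see whether the rest of the pathway behaved alike, 122 other genes of RNA polymerases I and III, the small and large subunit pathways, the RNA exosome and snoRNP assembly were listed, of which 120 were found and tested. Of these, 10 rose (8.33%) and 6 fell (5%), both below the shares of all genes tested (15.6% and 21.5%), and the median log2 fold change was 0.02 with 66 estimates above 0. The other RNA polymerase I genes had 0 of 10 higher and 1 lower, namely Znrd1, a small subunit of the enzyme, which fell by 0.57 on the log2 scale (SE 0.14, adjusted p = 0.0193, limma). Among 30 other small subunit genes, 3 rose and 1 fell, with Rcl1 (0.64), Nol6 (0.63) and the helicase Ddx49 (0.55) as those that rose. Among 34 other large subunit genes, 3 rose and 4 fell, led by Nle1 (0.83, 38.4 to 42.6 against 67.3 to 76.7 TPM), Rsl1d1 (0.59) and Brix1 (-0.63, 75.1 to 81.8 against 49.4 to 52.2 TPM). Nle1 and Brix1 both act on large subunit precursors and moved in opposite directions.

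The RNA exosome, which trims ribosomal RNA ends, had 1 of 13 genes higher. This was Exosc5, with the largest change of all pathway genes examined (0.91, SE 0.11, adjusted p = 0.000651, limma), measured at 199.7, 169 and 194 TPM in Pax5+/+ cells and at 351 and 353 TPM in Pax5-/- cells. Of 8 snoRNP assembly factors, 1 rose (Shq1, a chaperone of dyskerin, 0.57), and of 18 genes of RNA polymerase III and its factors, 2 rose, among them Gtf3a (0.59), which this polymerase needs for its ribosomal RNA gene. None of the 7 other late small subunit genes passed in either direction (limma).

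Ribosomal protein and proliferation genes moved in opposite directions. Of 83 cytosolic ribosomal protein genes tested, 44 rose (53.0%) and 1 fell, with a median of 0.48, and these genes took up 12.3%, 10.8% and 10.8% of all TPM in Pax5+/+ cells compared with 15.7% and 17.2% in Pax5-/- cells. In the Meox2-Cre libraries, made with another aligner, genome build and annotation, their share was 7.67%, 7.95% and 7.25%. The count of 44 was 25 with no filter on low values, 32 with median ratios, 11 without Pax5-/- replicate 1 and 3 without Pax5-/- replicate 2, where 10.8%, 19.8%, 6.61% and 5.83% of all genes tested passed as higher. The share of TPM taken by ribosomal protein genes was higher in Pax5-/- replicate 2, whereas the share of the 40 genes was higher in replicate 1. Of 20 proliferation genes, 13 fell (65%, against 21.5% of all genes tested) and 0 rose (against 15.6%) in the limma fit, with a median of -0.67. Fewer of them passed as lower when either Pax5-/- library was left out, where fewer genes passed over all genes tested too. Rrm2, a subunit of ribonucleotide reductase, fell by 1.66, cyclin A2 (Ccna2) by 1.00 and the mitotic kinase Plk1 by 0.75 on the log2 scale, and the summed level of the 20 genes was between 6466 and 7363 TPM in Pax5+/+ cells and between 5017 and 5630 TPM in Pax5-/- cells. The part of these differences in the changes of the 40 genes was not tested.

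**Figure D4:**
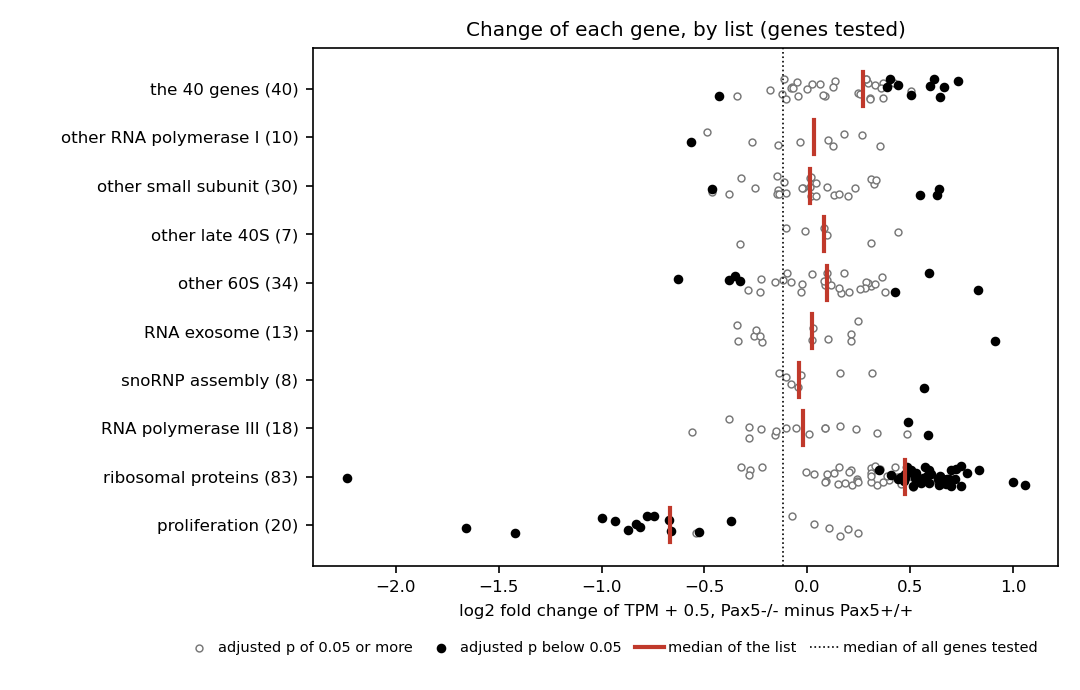
Log2 fold change of TPM + 0.5 between Pax5-/- and Pax5+/+ libraries for every tested gene of 10 lists, with 1 point per gene and the number of genes in brackets. Filled points passed an adjusted p of 0.05, red bars are list medians and the dotted line is the median of all genes tested. The medians are 0.27 for the 40 genes, 0.48 for the ribosomal proteins and -0.67 for the proliferation genes.

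Some genes listed as markers of other cells also differed between the genotypes. Bulk libraries do not show which cells expressed them. The summed level of 7 multipotent progenitor markers was between 31.4 and 45.5 TPM in Pax5+/+ cells and between 391 and 453 TPM in Pax5-/- cells, mostly from Flt3, and 3 of the 5 that could be tested rose. T cell markers summed to 106 to 137 TPM against 254 to 258 TPM, mostly from Lck, with 2 of 4 higher and 1 lower, and Cd3e and Cd8b1 were listed at 0 in both Pax5-/- libraries. Natural killer and innate lymphoid markers summed to 4.73 to 16.9 TPM against 22.4 to 27.4 TPM (1 of 4 higher, 1 lower), with Ncr1 listed at 0 in both Pax5-/- libraries. Plasmacytoid dendritic cell markers summed to 394 to 461 TPM against 217 to 310 TPM (1 of 5 higher, 2 lower). The drop of this sum came from the 2 genes that fell, whereas the 1 that rose had a mean of 5.43 TPM in Pax5-/- cells. Erythroid markers summed to 112 to 275 TPM against 32.8 to 85.8 TPM (0 of 5 higher, 3 lower) and myeloid markers to 46.6 to 256 TPM against 55.6 to 84.5 TPM (0 of 8 higher, 2 lower). The part of these cells or markers in the changes of the 40 genes was not tested.

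The Meox2-Cre libraries gave a separate measurement of the levels in pro-B cells with Pax5. The mean was below the Pax5+/+ mean for 23 of the 40 genes, and the ratio of both means ranged from 0.507 for Fbl to 1.45 for Polr1b, with a median of 0.985. The order of the genes by level was nearly the same, with a Spearman rho of 0.966 across the 40 genes, which share the libraries and are not independent. Rrp1 (406 ± 9.93 TPM), Emg1 (355 ± 16.7 TPM) and Nhp2 (353 ± 49.5 TPM; SD, n = 3 for each) were the most abundant there, and the last 2 did not differ beyond their spread. Npm1, at 323 ± 58.9 TPM in Pax5+/+ cells, was at 169.8 ± 22.8 TPM in the Meox2-Cre libraries (SD, n = 3 for each). Replicate 2 was the highest of the Meox2-Cre libraries for 35 of the 40 genes (against 29.3% of 11812 genes), as for Heatr1 (52.3, 62.6 and 50.7 TPM), Bop1 (149, 186 and 172 TPM) and Mybbp1a (245, 318 and 266 TPM). It was the lowest for Utp3 (107, 93.9 and 103 TPM) and Rrp1 (409, 395 and 415 TPM). These tables were made with another aligner, genome build and annotation, and no test was made between them.

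Several of the genes carry snoRNA genes within their introns or exons, which is a known arrangement in this pathway. In the GENCODE annotation of mm9, 7 of the 40 genes (17.5%) contained at least 1 annotated snoRNA gene on the same strand, compared with 1.90% of the 10678 tested genes that had an annotation. Nop56 and Nop58 held 4 each, Ncl, Wdr43 and Gnl3 held 3 each, Tsr1 held 2 and Dkc1 held 1, which is 20 in all. Of these 7 host genes, Wdr43 rose and the other 6 did not pass, with log2 fold changes between -0.08 and 0.42. In addition, 15 of the 40 genes shared exon bases with another annotated gene, and 11 carried the mark _IMP_OVL in the tables, read here as an overlap with another gene, among them Wdr12 and Emg1. Of the 10 genes that passed the test, 6 shared exon bases with a gene on the opposite strand, which were 185 bases for Polr1a, 144 for Nop14, 138 for Pes1, 131 for Mybbp1a, 61 for Wdr12 and 38 for Emg1. For such bases the reads of both strands cannot be told apart.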

How the data were processed

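RNA-seq of sorted pro-B cells was deposited as TPM values, which the authors calculated per library from reads per gene and gene length, with antigen receptor genes kept in. Reads of Pax5+/+ and Pax5-/- cells had been aligned to mm9 with TopHat 1.4.1a and counted by featureCounts 1.5.0 at default settings, hence without strand, on a modified refGene set. Reads of Meox2-Cre cells had been aligned to mm10 with STAR 2.4.2a. Read counts are not used here. Ribosomal protein levels affect TPM of other genes, since the sum is fixed.

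Genes whose mean exceeded 1 TPM in either genotype were fitted on log2(TPM + 0.5) with limma 3.58.1 (R 4.3.3; lmFit, eBayes with intensity trend), without covariates and with Benjamini-Hochberg adjustment. Fold changes on this scale understate low genes. Simulated data were used to test the code. The 40 genes and all lists were chosen with earlier results of these data known. Per-library values are given for genes with an adjusted p below 0.05 and for the largest and smallest change of each role group, and up to 3 genes with the smallest adjusted p below 0.05 are named per other list. Genes named beyond that rule were chosen after their values were seen. The alternatives were pseudocounts of 0.1 and 1, no filter or 5 TPM, eBayes without trend or robust, median ratios, quantile normalization, removal of immunoglobulin and T cell receptor or ribosomal protein genes, and leaving out each library. Meox2-Cre levels are means with SD. Chromatin samples of the series are not used here. Python 3.11.15 with pandas 2.3.3, numpy 2.4.6 and matplotlib 3.10.9 was used. Of the genes that the naming rule would name, 2 are not reported here.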

Additional observations from a re-analysis of the deposited data

How the results depend on the processing

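The count of 9 genes higher was the same with pseudocounts of 0.1 and 1, with no filter or a filter at 5 TPM, with robust eBayes and without immunoglobulin and T cell receptor genes, and it was 7 without the trend. It was 16 with median ratios, 18 with quantile normalization and 16 without ribosomal protein genes, and from 1 to 16 with 1 library left out. The count lower was 0 with median ratios and 0 to 1 with 1 library left out. The 3-fold count stayed at 0. The number above every Pax5+/+ library was 18 to 28 and the number below was 2 to 10 with 1 library left out, where 27.5% to 32.1% of all genes tested lay above and 39.4% to 47.7% below, and the latter was 1 with quantile normalization and 1 without ribosomal protein genes. For the other pathway genes, 21, 22 and 19 were higher and 2, 3 and 3 lower with median ratios, quantile normalization and no ribosomal protein genes, of 120, close to the 19.8%, 20.4% and 18.4% of all genes tested that passed as higher, 1 was lower without the trend, and 2 to 17 were higher and 0 to 7 lower with 1 library left out. Over all genes tested, 18.5% passed as lower without the trend, against 21.5% in the main fit. With 1 Pax5+/+ library left out, 13.3% to 16.5% of all genes tested passed as higher and 16.3% to 26.7% as lower. With 1 Pax5-/- library left out, fewer of all genes tested passed in either direction. The cause of the changes in count was not tested. With 1 Pax5-/- library left, the lone sample is assumed to vary like the others.

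The 10 genes that passed kept their direction in all 15 fits, as did 27 of the 40 genes. For these 10 genes the genotypes did not overlap, so leaving out 1 library could not change their direction. The filters and eBayes options leave every estimate unchanged, so those fits could not change a direction either. Estimates near 0 changed sign. With median ratios these were Ubtf (0.029), Ncl (0.027), Nolc1 (0.037), Ddx21 (0.00297), Wdr75 (0.058), Heatr1 (0.105) and Bop1 (0.055). With quantile normalization they were Ubtf (0.00359), Ncl (0.020), Nolc1 (0.00811), Wdr75 (0.052), Heatr1 (0.107) and Bop1 (0.042). Without ribosomal protein genes they were Ubtf (0.00961), Ncl (0.00756), Nolc1 (0.017), Wdr75 (0.038), Heatr1 (0.085) and Bop1 (0.036). With 1 library left out, the ranges that crossed 0 were Nop56 -0.19 to 0.30, Bop1 -0.19 to 0.094, Utp20 -0.075 to 0.25, Ddx10 -0.022 to 0.16, Nop2 -0.050 to 0.20, Ncl -0.20 to 0.044, Nolc1 -0.26 to 0.12, Ddx21 -0.28 to 0.074, Heatr1 -0.17 to 0.17, Rrp15 -0.28 to 0.056, Nop58 -0.026 to 0.27, Ubtf -0.24 to 0.086 and Wdr75 -0.19 to 0.099.

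No paired analysis was possible because there are no replicate numbers in the labels to link libraries of both genotypes. The depth in reads is unknown, so no interval for counting error is given, and 3 against 2 libraries limit the precision.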
